A study of Mus musculus with 2 samples.

Results

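Postn, Lrrc15, Fibin and Crispld2 are 4 of the 27995 genes listed for both single-cell libraries of the series. They were chosen by their levels in earlier results of these data, in which all 4 stood higher in cells of inguinal white adipose tissue (iWAT) than in cells of interscapular brown adipose tissue (iBAT). Their difference between depots is therefore a description. The cells came from the stromal vascular fraction of wild-type C57BL/6N mice that the labels give as 8 to 12 weeks old, and were cultured as primary preadipocytes to 80% confluency. The labels list untreated cultures of each depot and cultures given the fibroblast growth factor FGF1, FGF2 or FGF8 (5.5 nM, 48 h), and these 4 treatments were tagged and merged into 1 library per depot. The study's methods mention no FGF8 for this experiment and give a narrower age range. No file used here assigns cells to treatments, so each value describes a mixture. The tissue was pooled, no source names the sex of the animals, and 1 library per depot allows no test between depots.

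Postn encodes periostin, a secreted matricellular protein of the fasciclin family that binds integrins and collagens and supports collagen crosslinking. Lrrc15 encodes a membrane protein with leucine-rich repeats that is known as a marker of fibroblasts activated by TGF-beta. Fibin and Crispld2 encode secreted proteins, and Crispld2 is known as a glucocorticoid-responsive gene of mesenchymal cells. Activated fibroblasts make collagens and matrix-modifying enzymes, and myofibroblasts add a contractile apparatus that includes alpha-smooth muscle actin, the product of Acta2. Dpp4 marks interstitial progenitor cells of adipose tissue. Adipose fibroblast progenitors carry the receptor Pdgfra, which served here to gate stromal cells.

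On the build named in the submitters' processing notes (mm39, annotated here with GENCODE M39), Postn lies on the plus strand of chromosome 3, from 54268501 to 54298471, and its reference transcript has 21 exons. Lrrc15 lies on the minus strand of chromosome 16, from 30088120 to 30102084, with 2 exons. Fibin is a single-exon gene on the minus strand of chromosome 2, from 110191262 to 110193528. Crispld2 lies on the plus strand of chromosome 8, from 120719177 to 120779532, with 15 exons. The 4 genes are thus on separate chromosomes.

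The 250 bases upstream of each gene's start are shown because the 4 genes were all higher in cells with more UMIs of matrix genes, and they allow a comparison of the core promoters. The sequences are those of RefSeq on GRCm38.p6, a build older than that of the count files, at chr3:54360857-54361106 for Postn (plus strand), chr16:30283255-30283504 for Lrrc15 (minus strand), chr2:110362994-110363243 for Fibin (minus strand) and chr8:119992188-119992437 for Crispld2 (plus strand). Capitals mark matches, on either strand, to TATAAA (the TATA box), TGANTCA (the AP-1 motif), GGAATG (the TEAD motif) or the CArG box of serum response factor.
Postn: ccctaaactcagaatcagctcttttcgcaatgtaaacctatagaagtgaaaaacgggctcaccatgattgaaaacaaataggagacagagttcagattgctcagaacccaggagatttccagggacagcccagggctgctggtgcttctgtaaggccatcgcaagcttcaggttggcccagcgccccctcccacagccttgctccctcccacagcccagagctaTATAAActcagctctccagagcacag
Lrrc15: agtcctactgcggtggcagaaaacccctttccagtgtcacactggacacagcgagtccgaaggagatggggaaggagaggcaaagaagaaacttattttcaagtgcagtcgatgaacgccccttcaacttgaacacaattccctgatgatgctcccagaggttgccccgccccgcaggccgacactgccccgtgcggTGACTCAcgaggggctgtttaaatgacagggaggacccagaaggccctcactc
Fibin: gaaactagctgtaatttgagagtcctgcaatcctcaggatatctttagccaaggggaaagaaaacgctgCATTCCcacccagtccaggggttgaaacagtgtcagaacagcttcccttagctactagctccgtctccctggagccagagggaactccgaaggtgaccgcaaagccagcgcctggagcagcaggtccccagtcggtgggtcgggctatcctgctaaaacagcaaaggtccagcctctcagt
Crispld2: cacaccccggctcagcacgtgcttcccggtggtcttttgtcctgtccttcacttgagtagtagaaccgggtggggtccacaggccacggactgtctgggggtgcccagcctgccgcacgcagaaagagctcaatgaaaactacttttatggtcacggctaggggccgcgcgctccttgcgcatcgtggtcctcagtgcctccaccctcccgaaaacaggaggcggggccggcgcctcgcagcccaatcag
Postn had a TATAAA match that began 26 bases before the start, as 12.3% of 32536 distinct upstream windows had somewhere. Lrrc15 had an AP-1 match (TGACTCA) beginning 53 bases before the start, against 6.73% of windows, and Fibin a TEAD match on the opposite strand beginning 181 bases before it, against 12.6%. None of the 4 windows held a CArG box, which 1.48% of windows held, and Crispld2 held only the short SMAD motif CAGAC, on the opposite strand and left in lower case because 42.2% of windows had it. No motif was found in more than 1 of the 4 windows. The 4 windows were 52.0% (Postn), 56.4% (Lrrc15), 54.8% (Fibin) and 63.2% (Crispld2) G or C. The matches depend on where the gene is taken to start and on how far the window reaches. The windows around the GENCODE starts, unlike those shown, also held bases after the start. Around the GENCODE starts, the AP-1 match of Lrrc15 remained, at 41 bases, the TATAAA of Postn began at the 2nd base after the start, and Fibin had a TATAAA match beginning 210 bases before the start and a TEAD match at base 10 after it. In those longer windows Postn and Fibin both held TATAAA, that of Postn lying after the start.

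After cells with 200 or fewer or 7500 or more genes, or with 30% or more mitochondrial UMIs (unique molecular identifiers, each standing for 1 captured molecule), had been removed, 29744 iWAT and 28215 iBAT cells remained, with medians of 16204 and 27235 UMIs. Stromal cells were those with at least 1 Pdgfra UMI that met no marker gate of another class. They were 16718 cells in iWAT (56.2%, 95% interval 55.6 to 56.8) and 25057 in iBAT (88.8%, 88.4 to 89.2). In both libraries 9 of the 10 stromal markers reached 10 CPM (UMIs per 1000000 UMIs) in these cells, and none of the epithelial, immune, endothelial, skeletal muscle or adipocyte markers did. Of 8 mural markers 2 reached 10 CPM in each depot, and of 8 Schwann markers 0 in iWAT and 1 in iBAT. The libraries also differed in sex-linked genes, with Xist at 326 CPM in iWAT and 0.0526 in iBAT stromal cells, and Ddx3y at 1.18 and 81.2. With 1 library per depot, this difference cannot be told apart from that of depot in the values below, and its part was not tested. All intervals are exact, at 95%, and cover counting error only. Where a count is 0, the limit given is that of 3 counts.

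All 4 genes stood far higher in iWAT than in iBAT stromal cells, while Acta2 differed little. Only differences between cells or depots are compared, not levels between genes. Postn was at 1717 CPM in iWAT and 202 in iBAT, 8.48-fold higher (8.43 to 8.53). Lrrc15 was at 81.6 and 4.33, 18.8-fold higher (18.1 to 19.5). Fibin was at 239 and 23.0 (10.4-fold, 10.2 to 10.6), and Crispld2 at 108 and 11.2 (9.65-fold, 9.42 to 9.89). Dpp4 had a difference of like size, at 23.5 and 2.19 (10.7-fold, 10.2 to 11.4), whereas Acta2 was at 2644 and 2009 (1.32-fold). Col1a1, which encodes the main chain of type I collagen, was at 17413 and 6182 (2.82-fold).

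Of 8961 genes with at least 10 CPM in at least 1 depot, 4.35% were 2-fold or more higher in iWAT and 3.72% were 2-fold or more higher in iBAT. All 4 members were among the former, as their choice implies. Ranked by the ratio toward iWAT, Lrrc15 was at place 15, Fibin at 33, Crispld2 at 39, Postn at 50 and Acta2 at 1155. Of the 24 measured genes of a list of activated fibroblast matrix genes, 10 were 2-fold or more higher in iWAT and 1 in iBAT, and their median log2 ratio, iBAT over iWAT, was -0.88 against 0.053 over all 8961 genes. Cthrc1, a secreted protein of activated fibroblasts, was at 255 in iWAT and 169 in iBAT. The crosslinking enzyme gene Lox was at 2946 and 1568. Tgfbi, a fasciclin-domain relative of Postn, lay the other way, at 0.617 in iWAT and 15.2 in iBAT. Of 10 measured interferon-stimulated genes, 9 were 2-fold or more higher in iWAT.

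Outside the stromal gate the order of the classes differed between the 4 genes. Classes were gated on fixed markers and are called by the name of their markers. The lead of gate markers such as Rgs5, Foxd3 or Krt14 in a class follows from the gate and does not test its name. Immune-like cells (144 in iWAT, 203 in iBAT), were taken as the background. Free RNA, doublets and expression in these cells cannot be told apart in their values. In iWAT they held the 4 genes at 10.9% to 17.7% of the stromal level and Col1a1 at 13.9%. In iBAT they held Postn at 17.7%, Fibin at 12.8%, Crispld2 at 5.60% and Lrrc15 at 4.83% of the stromal level, with Col1a1 at 13.9%. Crispld2 rested on 3 UMIs there (0.0116 to 0.164 times stromal) and Lrrc15 on 1 UMI (0.00122 to 0.270 times).

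**Figure D1:**
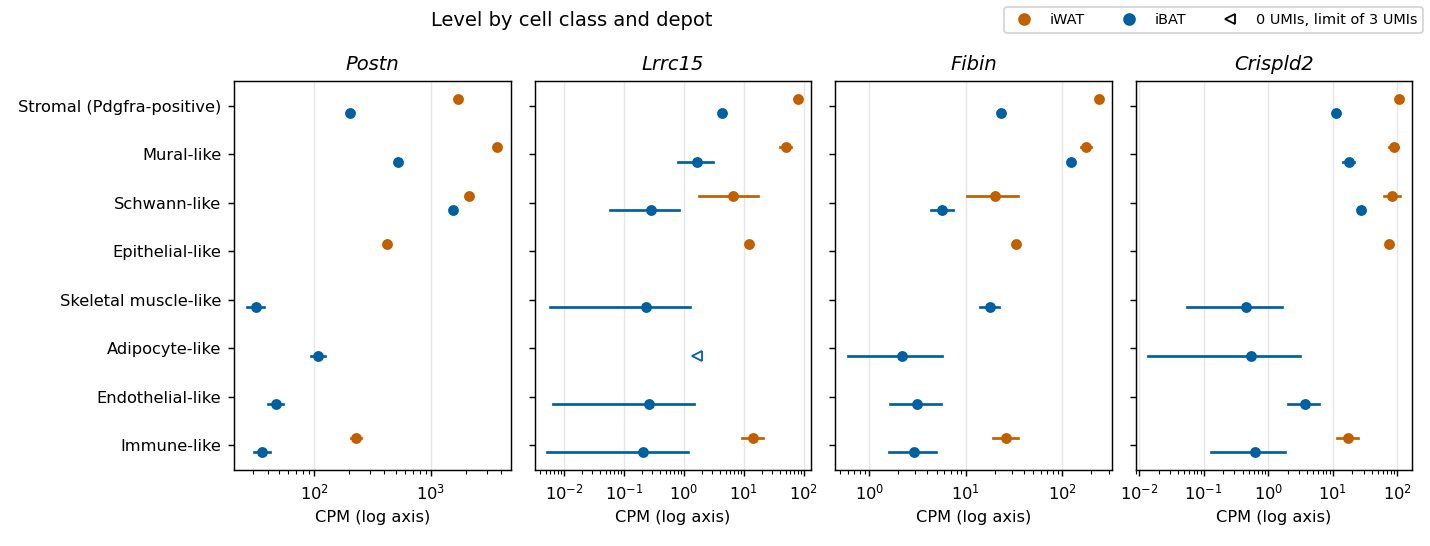
Level of each of the 4 genes, in CPM on a log axis, in classes of at least 50 cells of iWAT and iBAT, with bars for exact 95% Poisson intervals that are often smaller than the point. The open triangle marks a count of 0, drawn at the level of 3 UMIs. Postn was higher in mural-like than in stromal cells in both depots, and in iBAT its highest level was in Schwann-like cells, at 1529.

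Postn was as high or higher in glial and mural cells than in the stroma. Schwann-like cells, which express the glial genes Foxd3, Sox2 and Cdh19 or Sox10, held Postn at 2104 CPM in iWAT (63 cells) and 1529 in iBAT (636 cells). In iBAT that was 7.55 times the stromal level (7.43 to 7.68), and 96.5% of these cells had a Postn UMI once each was thinned to 10000 UMIs, against 60.2% of stromal cells and 13.8% of immune-like cells. The depots differed 1.38-fold in Schwann-like cells (1.30 to 1.46), compared with 8.48-fold in stromal cells. Mural-like cells had Kcnk3 and the gate markers Rgs5 and Gucy1a1 among their leading genes, and in iBAT also P2rx1, Myh11, Acan, Eln and Col10a1. They held Postn at 3670 in iWAT (101 cells, 2.14 times stromal, 2.08 to 2.19) and 527 in iBAT (252 cells, 2.61 times, 2.51 to 2.70). Postn in these cells kept a 6.96-fold difference between depots. In iWAT the ratio to stromal cells was 1.69 when 2 markers were required for the class and 2.77 when 4 were. Col1a1 was at 1.08 times stromal in iWAT and 2.59 times in iBAT mural-like cells, so the excess in iBAT was not particular to Postn. In Schwann-like cells Col1a1 was at 0.563 and 1.33 times stromal.

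Lrrc15 showed no class above the stroma among the named classes. It was at 50.1 CPM in iWAT mural-like cells, 0.614 times the stromal level (0.486 to 0.766), and at 1.66 in iBAT mural-like cells, 0.382 times (0.183 to 0.704). Schwann-like cells, so high in Postn, held Lrrc15 at 6.66 in iWAT (4 UMIs) and 0.286 in iBAT (3 UMIs), or 8.16% and 6.60% of the stromal level. At 10000 UMIs per cell, 0 of 636 iBAT Schwann-like cells had a Lrrc15 UMI, which allows a share of cells with a UMI of up to 0.472% and does not limit the share of cells expressing the gene. In both depots the counting interval of this share overlapped that of immune-like cells.

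Fibin was highest in mural-like cells in iBAT. It was at 122 CPM in iBAT mural-like cells, 5.30 times the stromal level (4.91 to 5.70), but at 175 in iWAT mural-like cells, 0.731 times (0.647 to 0.823). Mural-like cells of the depots thus differed 1.44-fold (1.25 to 1.65), against 10.4-fold in the stroma. In iBAT skeletal muscle-like cells (218 cells, led by Myh1, Atp2a1 and Tnnc2) Fibin was at 17.7, which was 77.1% of the stromal level. Postn was at 15.6% in these cells, Lrrc15 at 5.31% (1 UMI, 0.00134 to 0.296 times stromal) and Crispld2 at 4.11% (2 UMIs, 0.00497 to 0.148 times). Schwann-like cells held Fibin at 19.98 in iWAT and 5.72 in iBAT.

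Crispld2 was above the stroma in glial and mural cells of iBAT. It was at 27.5 CPM in iBAT Schwann-like cells, 2.45 times stromal (2.17 to 2.75), and at 83.2 in iWAT Schwann-like cells, 0.769 times (0.571 to 1.01). Mural-like cells held it at 88.1 in iWAT (0.814 times, 0.684 to 0.962) and 17.9 in iBAT (1.60 times, 1.31 to 1.93). Col1a1 was at 2.59 times stromal in iBAT mural-like cells, above the ratio of Crispld2. The Crispld2 value in iWAT mural-like cells depended on the gate, at 1.24 times stromal (1.12 to 1.37) with 2 rather than 3 markers required for a class and 0.320 times (0.219 to 0.452) with 4. Epithelial-like cells, found only in iWAT under these gates (4436 cells, with Krt14, Krt5 and Cldn7 among their leading genes), held Crispld2 at 74.9, or 69.2% of the stromal level. This value was uneven within the class, with 402 in 389 cells rich in basal keratins and 46.2 in the other 4047, sets that were chosen after the class level had been seen. In the same cells Lrrc15 was at 15.1%, Fibin at 13.9%, Col1a1 at 14.98% and Postn at 24.5%, so the share of Lrrc15 and Fibin was within that of immune-like cells and the shares of Crispld2 and Postn were above it.

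Endothelial-like and adipocyte-like cells of iBAT were lower than the stroma in all 4 genes. In iBAT endothelial-like cells (168) Postn was at 46.8, Fibin at 3.15, Crispld2 at 3.68 and Lrrc15 at 0.263 CPM. In iBAT adipocyte-like cells (66) Postn was at 108, 53.2% of the stromal level, Fibin at 2.20 and Crispld2 at 0.549, and Lrrc15 had 0 UMIs, which allows a level of up to 1.65. Fibin rested on 4 UMIs here, at 0.0956 times stromal, and was at 0.267 times (0.133 to 0.478) when 2 markers were required. Cells without a Pdgfra UMI and without another class stayed unnamed. In iWAT (7889 cells, led by Fgf21, Acta1, Fhl1 and Cdh6) Postn was at 1755 (1.02 times stromal), Lrrc15 at 83.2 (1.02 times), Fibin at 226 (0.945 times) and Crispld2 at 127 (1.17 times), with Acta2 at 1.32 times and Col3a1 at 0.734 times the stromal level. In iBAT (1234 cells, led by Actg2, Aldh1a3, Nrep and Aspn) all 4 genes were higher than in Pdgfra-positive cells, with Postn at 354 (1.75 times), Lrrc15 at 9.13 (2.11 times, 1.85 to 2.39), Fibin at 45.8 (1.99 times) and Crispld2 at 18.4 (1.64 times). Acta2 was 1.70 times and Col1a1 1.44 times the stromal level in these cells, and the summed level of 8 mural markers was 104 against 61.8 CPM. These iBAT cells had a median of 21817.5 UMIs against 27935 in the stroma, and the part of depth in the absence of a Pdgfra UMI was not tested.

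Within the stroma a Postn UMI was found in nearly all iWAT cells and in a smaller share of iBAT cells, and the other 3 genes were likewise found in a larger share of iWAT than of iBAT cells. Every cell was thinned to 10000 UMIs so that depth could not differ. This left 15079 stromal cells in iWAT, where 1639 shallower cells dropped out, and 25057 in iBAT. A Postn UMI was found in 99.6% of iWAT cells (99.9% before thinning) and 60.2% of iBAT cells (78.9%), with medians of 14 and 1 and maxima of 144 and 65 UMIs. Immune-like cells had one in 67.4% and 13.8% of cells. A Lrrc15 UMI was found in 42.6% and 3.49% of cells (54.5% and 7.78% before thinning), against 12.0% in iWAT immune-like cells and 0 of 203 iBAT ones, which allows a share of up to 1.48%. Fibin was found in 72.5% and 15.7% of stromal cells, with 15.2% and 2.46% in immune-like cells, and Crispld2 in 49.0% and 8.77%, with 9.78% and 0.493%. All of these stromal shares were above the immune-like ones.

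**Figure D2:**
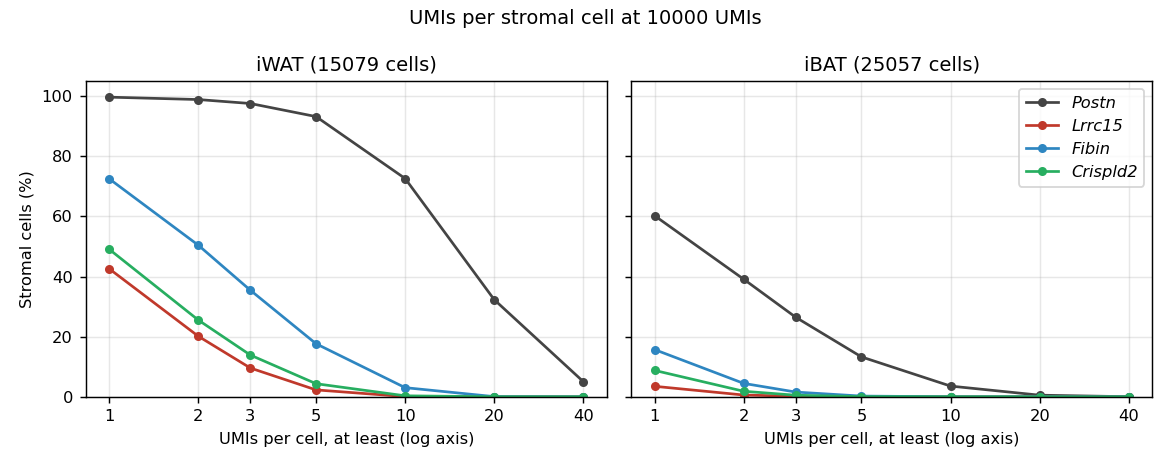
Percent of stromal cells (vertical axis) with at least a given number of UMIs of each gene (horizontal log axis), after thinning to 10000 UMIs, for 15079 iWAT and 25057 iBAT cells. In iWAT 32.3% of cells had 20 or more Postn UMIs, compared with 0.539% in iBAT.

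How many of the genes had a UMI in the same cell depends on how often each was detected. All 4 had a UMI in 17.7% of iWAT and 0.196% of iBAT stromal cells, and none had one in 0.106% and 32.5%. In iBAT 0.587% of stromal cells had 2 or more Lrrc15 UMIs. The variance of Postn UMIs over their mean was 8.28 in iWAT and 5.45 in iBAT, at means of 17.2 and 2.06 UMIs per cell.

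Whether the genes followed each other was read by splitting the thinned stromal cells at the median of 1 gene and comparing the level of another in the cells above the median (high) and in the others (low). The median was 14 UMIs in iWAT and 1 in iBAT for Postn, and 22 and 14 for Acta2. It was 0 for Lrrc15, Crispld2 and Dpp4 in both depots and for Fibin in iBAT, so that high there means any UMI. Thus 6419 of 15079 iWAT but 874 of 25057 iBAT cells were Lrrc15-high, and the sizes of ratios are not on a like footing between depots. Cells of 1 library are not replicates, and no test was made. Depth before thinning was close on both sides of the Postn split, with medians of 18999 and 19228 UMIs in iWAT and 27776.5 and 28050 in iBAT. It differed more for Acta2, with 19789 in high and 18372.5 in low cells of iWAT and 28485.5 and 27468 in iBAT, and for Dpp4, with 18226.5 and 19286 in iWAT and 29946.5 and 27897 in iBAT. The summed level of 6 cycling genes was lower in Postn-high cells, at 819 against 1132 CPM in iWAT and 1014 against 1256 in iBAT, and the part of cycling in the ratios was addressed by repeating them in cells with at most 1 UMI of those genes.

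Of the members, Lrrc15 had the highest ratio between Postn-high and Postn-low cells. It was at 104 CPM in Postn-high and 58.6 in Postn-low iWAT cells, a ratio of 1.78 (1.71 to 1.85), and at 7.37 and 2.36 in iBAT, a ratio of 3.12 (2.75 to 3.56). In iWAT cells with at most 1 cycling UMI the ratio was 1.63. Fibin had a ratio of 1.22 in iWAT (1.19 to 1.24) and 2.12 in iBAT (2.01 to 2.23), and Crispld2 of 1.42 (1.37 to 1.46) and 1.78 (1.65 to 1.91). The members were thus higher in Postn-high cells in both depots. Over cells, the Pearson coefficient with Postn was 0.233 for Lrrc15, 0.114 for Fibin and 0.144 for Crispld2 in iWAT, and 0.136, 0.181 and 0.103 in iBAT, where Fibin and not Lrrc15 was highest.

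**Figure D3:**
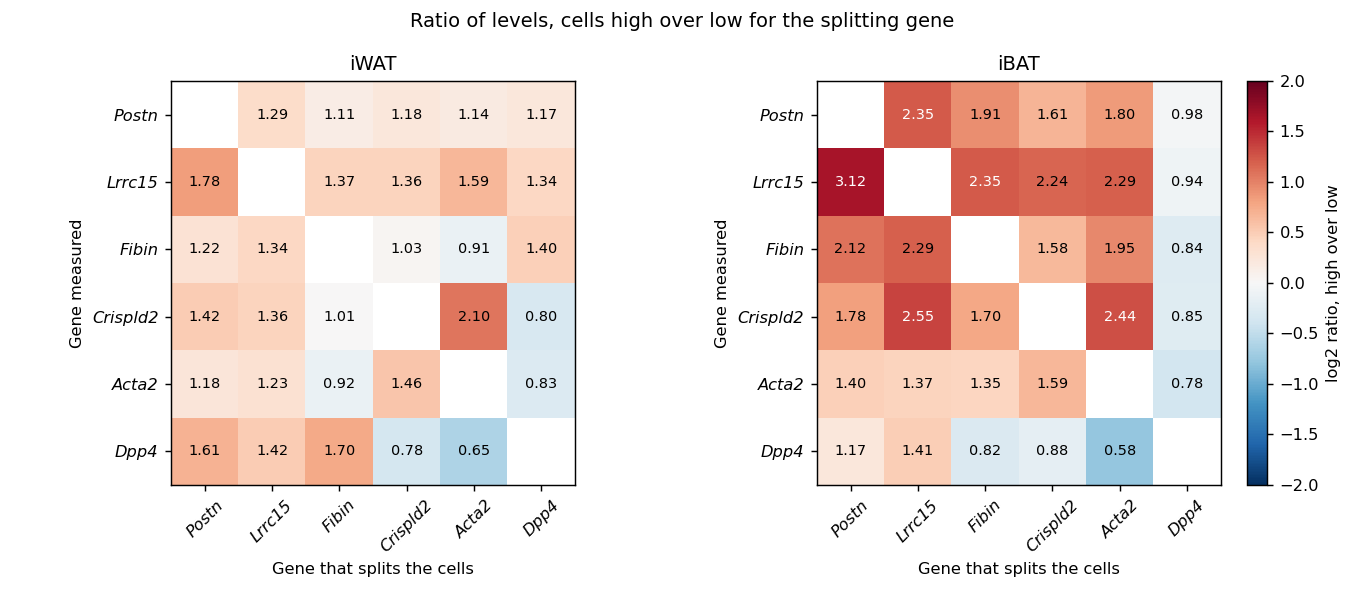
Ratio of the level of the gene in each row between stromal cells high and low for the gene in each column, with color for the log2 ratio. Ratios among the 4 members ran from 1.01 to 1.78 in iWAT and from 1.58 to 3.12 in iBAT. The cells were cut at different UMI counts in the depots, so the sizes of these ratios are not directly comparable. The Dpp4 and Acta2 rows and columns differ by gene and depot.

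Along the Postn count itself, Lrrc15 had the steepest gradient of the other members. In iWAT it was at 14.8 CPM in the 54 cells without a Postn UMI and at 142 in the 694 cells with more than 40. In iBAT it was at 1.94 in the 9968 cells without a Postn UMI, at 6.28 in the 4124 cells with 3 to 5, at 11.1 in the 1781 cells with 6 to 10, at 16.1 in the 610 cells with 11 to 20, and at 40.6 (29.1 to 55.1) in the 101 cells with 21 to 40. Fibin in iBAT was at 15.4, 29.6, 45.6, 69.5 and 125 in the same sets of cells, and Crispld2 went from 8.60 to 44.6 between the first and the last of them. In iWAT Fibin was flatter, from 150 in cells without a Postn UMI to 273 above 40, and Crispld2 was at 87.0 and 159. Cthrc1 was at 204 and 360 in the same iWAT cells, and Tagln, which encodes the actin-binding protein transgelin, at 1383 and 1945.

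**Figure D4:**
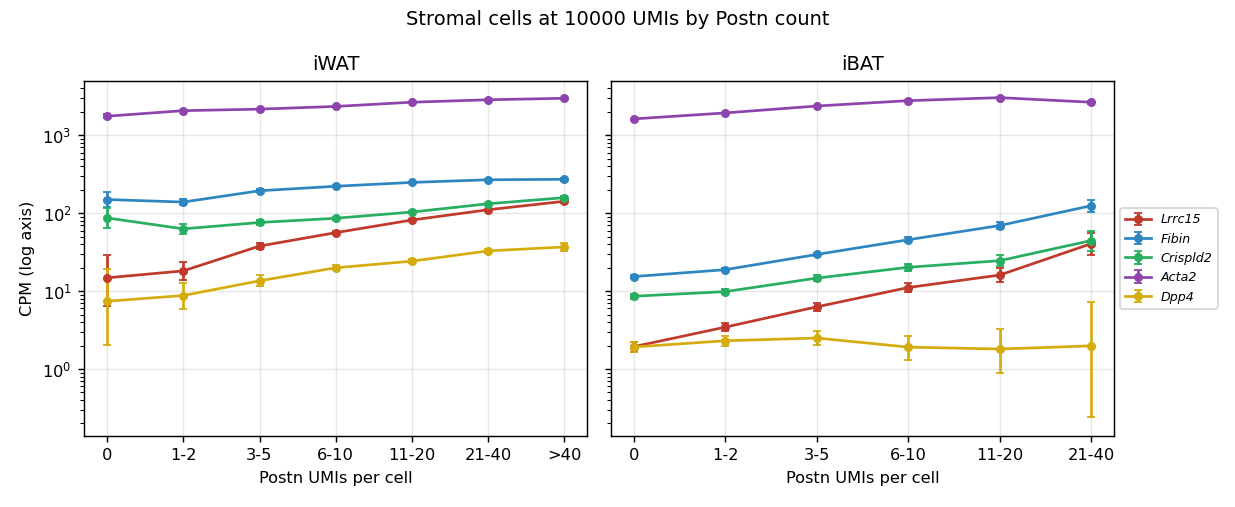
Level of Lrrc15, Fibin, Crispld2, Acta2 and Dpp4 (CPM, log axis) in stromal cells thinned to 10000 UMIs and grouped by their Postn UMIs, with exact 95% Poisson intervals. Lrrc15 spans 14.8 to 142 in iWAT, while Dpp4 goes from 7.41 to 36.9 in iWAT and stays between 1.80 and 2.50 in iBAT.

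Fibin and Crispld2 were the pair that did not go together in iWAT. Crispld2 was at 107 CPM in Fibin-high and 106 in Fibin-low iWAT cells, a ratio of 1.01 (0.973 to 1.04), and Fibin was at 246 and 239 in Crispld2-high and Crispld2-low cells (1.03, 1.01 to 1.05). In iWAT cells with at most 1 cycling UMI the latter ratio was 0.953 (0.915 to 0.992). In iBAT the corresponding ratios were 1.701 (1.56 to 1.85) and 1.58 (1.46 to 1.702). Lrrc15 went with both in both depots, at 1.37 in Fibin-high and 1.36 in Crispld2-high iWAT cells, and at 2.35 and 2.24 in iBAT.

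Acta2 separated Crispld2 and Fibin in iWAT. Crispld2 was at 145 CPM in Acta2-high and 68.8 in Acta2-low iWAT cells, a ratio of 2.10 (2.03 to 2.17), and 16.3 and 6.70 in iBAT (2.44, 2.25 to 2.64). Lrrc15 was 1.59 times as high in Acta2-high cells of iWAT (1.53 to 1.65) and 2.29 times in iBAT (2.01 to 2.62), where its interval overlapped that of Crispld2. Postn was higher in Acta2-high cells of both depots, at 1831 against 1611 in iWAT (a ratio of 1.14, 1.13 to 1.15) and 266 against 148 in iBAT (a ratio of 1.80, 1.76 to 1.83). Fibin was lower in Acta2-high iWAT cells, at 231 against 254 (0.908, 0.890 to 0.927), and higher in Acta2-high iBAT cells, at 30.4 against 15.6 (1.95, 1.84 to 2.06). Pdgfra itself was lower in Acta2-high cells, at 121 against 176 in iWAT and 260 against 332 in iBAT. It was also lower in the cells high for each of the 4 members in both depots, as in Postn-high cells (145 against 153 in iWAT and 265 against 318 in iBAT) and Lrrc15-high cells (145 against 152 and 245 against 299). The part of the Pdgfra gate in the ratios was not tested beyond the setting that required 2 Pdgfra UMIs.

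Dpp4 went with Postn, Lrrc15 and Fibin in iWAT but not detectably in iBAT, where it was rare. In iWAT 2696 of 15079 stromal cells had a Dpp4 UMI, and these held Fibin at 316 CPM against 226 in the others (1.40, 1.36 to 1.43), Lrrc15 at 102.6 against 76.7 (1.34, 1.28 to 1.40) and Postn at 1959 against 1669 (1.17, 1.16 to 1.19). Crispld2 was lower in these cells, at 88.5 against 110 (0.802, 0.768 to 0.838), as was Acta2 (0.832). In iBAT 444 of 25057 cells had a Dpp4 UMI. The ratios there were 0.978 for Postn (0.915 to 1.05), 0.938 for Lrrc15 (0.554 to 1.49), 0.837 for Fibin (0.667 to 1.04) and 0.849 for Crispld2 (0.613 to 1.15), so that no difference was detectable at this depth. Other settings moved these ratios, with Lrrc15 at 2.34 (1.16 to 4.22) when cells were thinned to 5000 UMIs and with Fibin at 0.498 (0.289 to 0.799) and Crispld2 at 0.520 (0.237 to 0.991) in cells of intermediate depth. Dpp4 and Acta2 opposed each other in both depots, Dpp4 being 0.653 times as high in Acta2-high iWAT cells and 0.584 times in iBAT.

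The whole transcriptome was then compared between Postn-high and Postn-low stromal cells, over 9739 genes with a mean of at least 0.05 UMIs per cell in both libraries. Lrrc15 and Dpp4 were below that mean in iBAT and are not among them. In iWAT 0.534% of genes were 1.5-fold or more higher in Postn-high cells and 0.554% were 1.5-fold or more lower. In iBAT these shares were 1.1% and 0.637%. Of the other members in this table, Fibin and Crispld2 passed 1.5-fold in iBAT but not in iWAT. The median ratio over all genes was 0.969 in iWAT and 0.990 in iBAT.

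C1qtnf3 and Aspn led the genes that were higher in Postn-high cells of both depots. C1qtnf3, a secreted C1q/TNF-related protein of adipose tissue, was at 48.3 CPM in Postn-high and 12.6 in Postn-low iWAT cells (3.82-fold), and at 17.5 and 3.51 in iBAT (4.99-fold). Aspn, which encodes the small leucine-rich proteoglycan asporin, was at 77.6 and 24.2 in iWAT (3.21-fold) and 53.2 and 7.75 in iBAT (6.86-fold). Fndc1 (2.28-fold in iWAT and 2.79-fold in iBAT), the metalloproteinase gene Pappa (2.05-fold in both), the amine oxidase gene Aoc3 (2.02-fold and 2.05-fold) and the collagen-binding integrin gene Itga11 (1.99-fold and 2.99-fold) came next. Angpt4, the chemokine gene Ccl11, Srpx2 and the collagen gene Col8a1 were 1.73- to 2.02-fold higher in iWAT and 1.72- to 1.88-fold higher in iBAT.

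The genes that were lowest in Postn-high cells were Esm1, the gene of the proteoglycan endocan (0.379 times in iWAT and 0.353 times in iBAT), the kinase gene Prkcb (0.395 and 0.385), the retinoic acid-synthesizing enzyme gene Aldh1a2 (0.517 and 0.496), the protease inhibitor gene Serpinb2 (0.350 and 0.563) and the chromatin protein gene Hmga1 (0.472 and 0.565). All 6 cycling genes were lower too, with ratios from 0.672 to 0.752 in iWAT and from 0.778 to 0.830 in iBAT.

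Of 24 measured activated fibroblast matrix genes, 5 in iWAT and 8 in iBAT were 1.5-fold or more higher in Postn-high cells, against 0.534% and 1.1% of all 9739 genes, and 23 in each depot had a ratio above 1, against 38.0% of all genes in iWAT and 45.3% in iBAT. Their median ratios were 1.29 and 1.40, and those of all genes 0.969 and 0.990. Col3a1 was 1.47-fold and 1.62-fold higher, Lox 1.45-fold and 1.47-fold, and Cthrc1 1.29-fold and 2.04-fold. Tnc, the gene of the matrix protein tenascin-C, was at 1.08 and 1.01, and Inhba, the activin A subunit gene, at 0.989 and 1.06. Of 9 measured contractile genes, 0 in iWAT and 2 in iBAT (Cnn1 at 1.74 and Actg2 at 1.55) passed 1.5-fold, with Tagln at 1.10 and 1.25. Of these genes 7 in iWAT and all 9 in iBAT were above 1, with medians of 1.18 and 1.38.

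Of 9 measured genes of known periostin partners, 1 in iWAT and 0 in iBAT passed 1.5-fold, where 0.534% and 1.1% of all genes did. A ratio above 1 was found for 8 in each depot, against 38.0% and 45.3% of all genes, and the medians were 1.22 and 1.08. Lox was given above, and the fibronectin gene Fn1 was at 1.22 and 1.35. The integrin receptor genes Itgav (1.01 in iWAT and 1.05 in iBAT) and Itgb1 (1.08 in both) were close to 1, Itgb5 was at 1.22 and 1.25, and Itgb3 was at 0.758 and 0.956. Bmp1, whose protease product acts on matrix proteins, was at 1.23 and 1.27, and Ccn3 was at 2.45 in iWAT and 1.08 in iBAT. Among 13 genes of the TGF-beta pathway, the ligand genes Tgfb2 (1.49 and 2.22) and Tgfb3 (1.28 and 1.90) were above 1, the receptor gene Tgfbr2 was at 1.23 and 1.22, and Ltbp1, which encodes a latent TGF-beta binding protein, was at 0.773 and 0.687. Tgfb1 was at 1.04 and 1.06. Of the 13 genes, 0 in iWAT and 2 in iBAT passed 1.5-fold, 9 and 8 were above 1, and the median was 1.03 in both depots.

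Of all genes, 0.534% in iWAT and 1.1% in iBAT were 1.5-fold or more higher in Postn-high cells, and 0.554% and 0.637% lower. Of 10 measured committed preadipocyte genes, 2 in iWAT (Cxcl14 at 1.77 and Fabp4 at 1.53) and 1 in iBAT (Col15a1 at 1.82) passed 1.5-fold. Of these 10 genes, 10 and 7 were above 1, against 38.0% and 45.3% of all genes, with medians of 1.25 and 1.03. Fabp4 was at 0.964 in iBAT. Of 5 measured interstitial progenitor genes, 10 glucocorticoid-responsive genes and 7 interferon-stimulated genes, 0 passed 1.5-fold in either direction in either depot. With so few genes and such low shares of all genes, 0 says little. Dpp4, on the progenitor list but below the mean required in iBAT, was not counted. It was at 30.7 CPM in Postn-high and 19.0 in Postn-low iWAT cells (1.61, 1.51 to 1.73). In iBAT its ratio was 1.17 (0.983 to 1.39). Of the interferon-stimulated genes 6 in each depot were above 1, against 38.0% and 45.3% of all genes, with medians of 1.13 and 1.18. Of the interstitial progenitor genes 2 and 3 were above 1 (medians 0.980 and 1.25), and of the glucocorticoid-responsive genes 6 and 3 (medians 1.02 and 0.892). Fkbp5, a glucocorticoid-induced gene, was at 0.825 in iWAT and 0.892 in iBAT. Pi15, a CRISP-family relative of Crispld2, was at 0.843 and 0.755.

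When stromal cells were ranked by the summed UMIs of a gene list and cut into 4 equal sets, the order of the sets depended on the list. Along the activated fibroblast matrix list all 4 genes were higher in each successive set in both depots. So were Dpp4 in iWAT (18.5 to 33.4) and Acta2 in iBAT (952 to 3177). Acta2 in iWAT (1931 to 2808) and Dpp4 in iBAT (1.48 to 2.33) were highest in the set below the top. The share of all genes that rose along this list was not computed. From the lowest to the highest set Postn went from 1118 to 2435 CPM in iWAT and from 75.4 to 420 in iBAT, Lrrc15 from 44.2 to 120 in iWAT and from 1.5 to 8.24 in iBAT, Fibin from 172 to 300.2 and from 6.62 to 43.8, and Crispld2 from 56.0 to 155 and from 4.23 to 20.8. Along the contractile list Crispld2 went from 54.7 to 180 and Lrrc15 from 52.8 to 112 in iWAT, while Postn went from 1620 to 1855 and Fibin down from 265 to 202. In iBAT all 4 were higher toward the top of the contractile list, Fibin going from 12.8 to 32.6. The sets are ranges, not cell types.

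**Figure D5:**
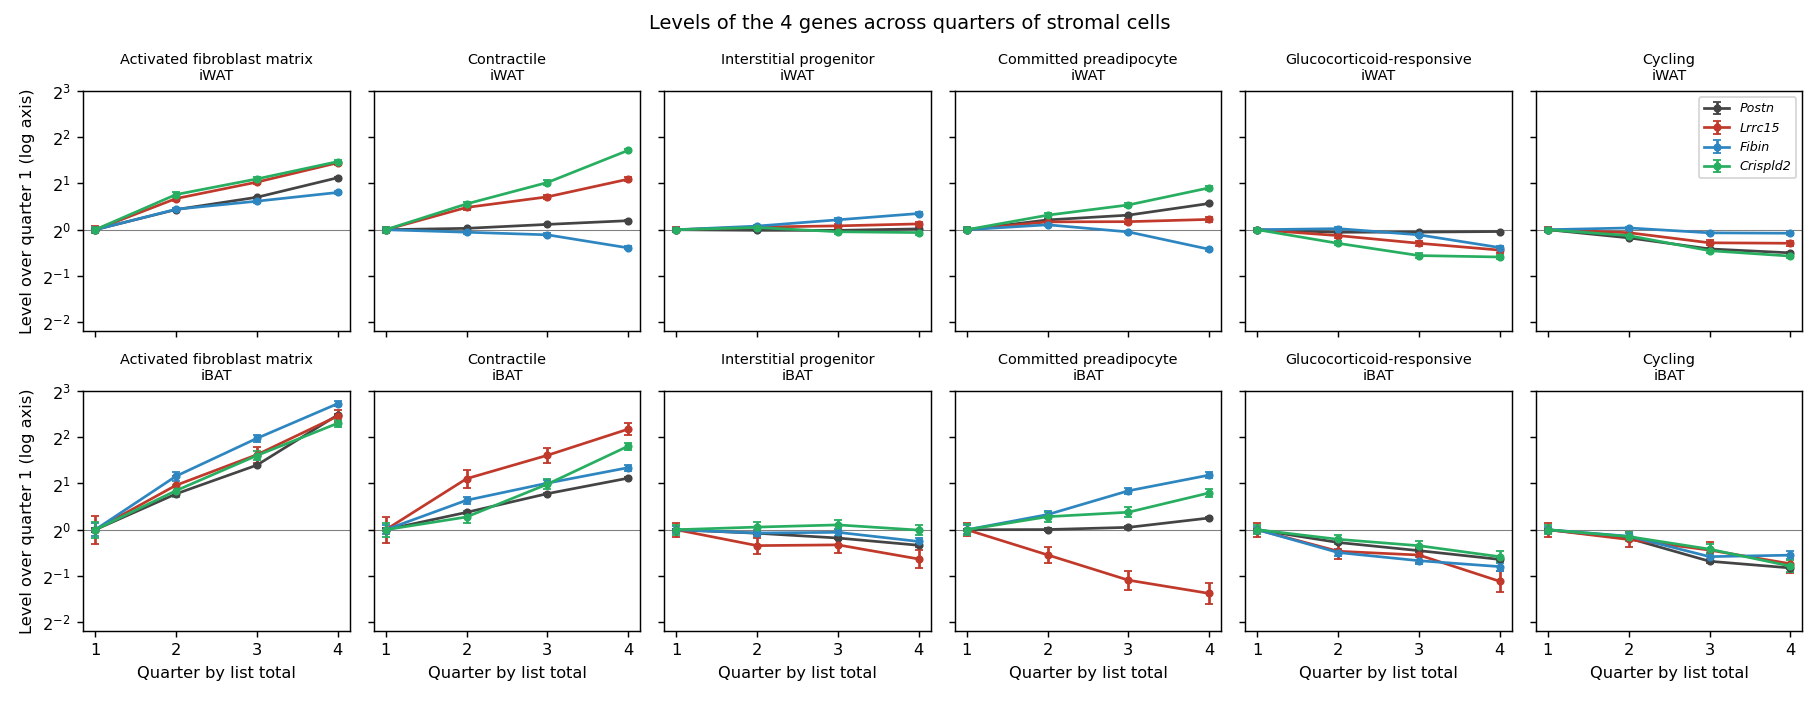
Level of the 4 genes in 4 equal sets of stromal cells ranked by the UMIs of 6 gene lists, relative to the lowest set (log axis), with exact 95% Poisson intervals of each set's count. All 4 genes were higher toward the top of the activated fibroblast matrix list in both depots, and Lrrc15 went from 6.80 to 2.62 CPM along the committed preadipocyte list in iBAT.

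The sum of a list is weighted toward its abundant genes. In the committed preadipocyte list Cxcl14 and Col4a1 were at 1366 and 1033 CPM in Postn-high iWAT cells, and Pparg and Fabp4 at 12.4 and 53.7. In Postn-high iBAT cells these 4 genes were at 408, 910, 29.6 and 86.0. The sets therefore reflect Cxcl14 and Col4a1 more than Pparg or Fabp4. Along this list Lrrc15 was somewhat higher toward the top in iWAT (73.6 to 85.9) and lower toward the top in iBAT (6.80 to 2.62). Fibin went the other way between depots, from 256 to 191 in iWAT and from 14.4 to 32.8 in iBAT. Postn went from 1409 to 2088 in iWAT and from 194 to 232 in iBAT, and Crispld2 from 76.5 to 143 and from 8.67 to 15.1. The interstitial progenitor sum is weighted toward Anxa3, at 321 CPM in Postn-high iWAT cells and 287 in iBAT. The next measured genes were Creb5 at 34.5 in iWAT and Ly6c1 at 84.7 in iBAT. The sets along this list thus mainly rank cells by Anxa3, and Dpp4 went from 22.1 to 26.9 in iWAT and from 1.71 to 3.11 in iBAT. Along this list Fibin was higher toward the top in iWAT (216 to 275) and Lrrc15 lower in iBAT (5.35 to 3.45). Postn was at 1723 and 1744 in iWAT and went from 227 to 180 in iBAT. The glucocorticoid-responsive sum is weighted toward the metallothionein genes Mt1 and Mt2. They were at 904 and 1075 CPM in Postn-high iWAT cells and 1159 and 1502 in iBAT, and Fkbp5 at 26.3 and 27.4. The sets along this list thus mainly rank cells by Mt1 and Mt2. Along it all 4 members were lower in the highest than in the lowest set in both depots. Crispld2 went from 135 to 89.5 in iWAT and from 13.7 to 9.15 in iBAT, Lrrc15 from 93.8 to 69.1 and from 6.02 to 2.78, Fibin from 261 to 199.97 and from 31.3 to 18.0, and Postn from 1764 to 1717 and from 257 to 165. Acta2 was lower too, going from 3276 to 1993 and from 2853 to 1355. Along the cycling list Postn went from 2059 to 1456 in iWAT and from 268 to 151 in iBAT.

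The genes with patterns most like each member were named by the smaller of the correlations in the 2 depots, over thinned stromal cells and log-transformed UMIs. These are descriptions over cells that share a library. For Postn they were Col1a2, Col5a2, Col1a1, Sparc, Aspn, Lox, Ccdc80, Col3a1, Loxl2 and Col8a1, with Pearson coefficients from 0.234 to 0.430, all of them genes of collagens, matrix proteins or crosslinking enzymes. For Lrrc15 the coefficients were lower, from 0.0838 to 0.182 in sparse counts, with Aspn, Col1a1, Col6a3, Palld and Col1a2 first. Postn and Lrrc15 themselves were not among the genes ranked. The coefficients of Postn with Lrrc15 were 0.233 in iWAT and 0.136 in iBAT, the smaller of them below that of Aspn and above that of Col1a1. Fibin came closest to Col1a2, Col1a1, Col6a2, Nrep and Col6a1 (0.160 to 0.281). Crispld2 was nearest to Col1a1 and Col5a2 and to the contractile genes Cnn1, Myl9 and Acta2 (0.135 to 0.283). The contractile gene Tpm1 was also among the 10 genes nearest to Lrrc15, with coefficients of 0.153 and 0.0926.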

How the data were processed

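Single-cell libraries of cultured stromal vascular cells (1 per depot, BD Rhapsody) were analysed from the raw UMI counts deposited by the authors, whose reads were aligned and annotated with a commercial web service. The build mm39 and Seurat 5.0.0 are named in the submitters' processing notes. The annotation and the treatment of reads that match several loci are not given in the sources used here. The totals were 503611913 UMIs in 29962 barcodes (iWAT) and 815235820 in 28636 (iBAT). The libraries list 8 of the same cell indices. Cells were filtered as in the published methods.

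A class needed 3 or more of its markers, 5 marker UMIs per 10000 and, adipocytes excepted, under 1 Pdgfra UMI per 10000. Cells of several classes were set aside as mixed. No doublet caller was run. Cells were thinned to 10000 UMIs at random without replacement. Intervals are exact Poisson, binomial or Clopper-Pearson. Genes were named as members, Acta2 and Dpp4, the 10 highest and 5 lowest in the Postn split in both depots, the most correlated genes (10 or 5) and up to 4 genes per list beside a few fixed ones. From the periostin partner and TGF-beta lists more than 4 were named, outside this rule. Others (Xist, Ddx3y, Pdgfra, Col1a1 in classes) are checks. Python 3.11.15, numpy 2.4.6, scipy 1.17.1 and pandas 2.3.3 were used. The code of the split was run on simulated Poisson counts in groups of equal size. The counts here vary more and many groups are unequal, so that run checks the code and not the ratios.

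The members and lists were chosen with earlier results of these data known. The RefSeq upstream windows were taken after motif matches around the GENCODE M39 starts had been seen. Alternatives changed the cell gate, the depth of thinning, the random seed, the scaling and the filters.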

Additional observations from a re-analysis of the deposited data

Results flagged for a closer look

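The Fibin and Acta2 pair had opposite directions in the depots. Fibin in Acta2-high over Acta2-low stromal cells was 0.908 in iWAT and 1.95 in iBAT, and Acta2 in Fibin-high over Fibin-low cells was 0.916 in iWAT and 1.35 in iBAT. The difference between depots was not tested, since each depot is 1 library.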

How the results depend on the processing

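No paired analysis was possible because each depot has 1 library. The log2 ratios, iBAT over iWAT, stayed far below 0 in every setting run. With 2 or more Pdgfra UMIs required they were -3.14 (Postn), -4.32 (Lrrc15), -3.48 (Fibin) and -3.24 (Crispld2), and over all kept cells -2.79, -4.09, -3.12 and -3.22. Under median of ratios scaling, which shifts every gene by 0.053, Postn was at -3.14, Fibin at -3.43 and Crispld2 at -3.32, and without the 5% of cells with the most UMIs Postn was at -3.07. The numbers of genes 2-fold or more higher in iWAT and in iBAT were 390 and 333. A filter of 50 CPM gave 152 and 135, and no filter beyond 1 UMI in each library gave 3313 and 2913.

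Lrrc15 in Postn-high over Postn-low cells stayed above 1 in every setting run. It was 3.56 in iBAT cells of intermediate depth, 1.63 in iWAT cells with at most 1 cycling UMI and 1.85 in iWAT at 5000 UMIs. Postn in Acta2-high over Acta2-low cells was, in iBAT, 1.57 with at most 1 cycling UMI, 1.96 at intermediate depth and 1.85 with another random seed, and in iWAT 1.15 with 2 Pdgfra UMIs, 1.07 with at most 1 cycling UMI, 1.15 at intermediate depth and 1.10 at 5000 UMIs. The random seed alone thus moved a ratio by more than its counting interval. Postn in Dpp4-positive cells of iBAT lay on either side of 1, at 1.06 with at most 1 cycling UMI, 0.862 at intermediate depth and 1.21 at 5000 UMIs, and the cause was not tested. In iWAT it was 1.14 with 2 Pdgfra UMIs, 1.19 at intermediate depth and 1.16 with another seed.

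Of 56 ratios between genes, with pairs taken in both orders, 47 had an interval without 1. Of these, 46 kept their direction under all 6 alternatives. The intervals leave out the variation between cells, and the alternatives used cells of the same libraries. These counts therefore do not measure how far the ratios would hold in other libraries. The ratio that changed direction was Fibin in Crispld2-high iWAT cells (0.953 with at most 1 cycling UMI). Of 76 class alternatives, Crispld2 in iWAT mural-like cells reversed, to 1.24 with 2 markers, and was 0.320 with 4. With 2 markers Fibin in iBAT adipocyte-like cells was 0.267 times stromal, against 0.0956. At a mean of 0.2 UMIs, 26 genes were 1.5-fold higher and 21 lower in Postn-high iWAT cells, and 51 and 31 in iBAT, against 52, 54, 107 and 62. At 5000 UMIs 34 were higher in iWAT, and 62 higher and 25 lower in iBAT. Lrrc15 and Dpp4 were sparse in iBAT, and their intervals there are wide.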

Other observations

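The epithelial-like cells of iWAT were divided after their class levels had been seen, so the following values are descriptions. In 389 cells the UMIs of the basal keratin genes Krt5, Krt14 and Krt15 outnumbered those of the luminal keratin genes Krt7 and Krt8, and in 4047 they did not. Crispld2 was at 402 CPM in the former and 46.2 in the latter, 8.68-fold higher (8.16 to 9.24), and the former value is above the 108 of stromal cells. Postn was at 1413 and 333 (4.24-fold, 4.12 to 4.36), and Acta2, which myoepithelial cells are known to express, at 4006 and 1214 (3.30-fold). Lrrc15 was at 11.5 and 12.4 (0.930-fold, 0.685 to 1.24), Fibin at 43.2 and 32.3 (1.34-fold, 1.14 to 1.55) and Col1a1 at 2789 and 2593 (1.08-fold). The cells rich in basal keratins thus held Crispld2 and Postn, but Lrrc15 and Col1a1 at close to the level of the other epithelial-like cells.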
